A study of Mus musculus with 16 samples.

Results

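The effect of deleting PGC-1α in the renal tubule was described in mice on a chow diet, by setting the 4 whole-kidney arrays labelled chow NiPKO against the 4 labelled chow CTRL across 22180 genes, 8 of the 16 arrays of the study. Each gene was represented by the brightest probe set that is annotated to a single symbol. NiPKO mice are male nephron-specific inducible knockouts that carry the transgenes Pax8-rtTA and (tetO-cre)-LC1 and floxed PGC-1α alleles (PGC-1α fl/fl), and CTRL mice are their littermates, for which no source used here spells out the alleles. The fl/fl line is on a C57BL/6 background and the transgenes were on a mixed background, and Cre was induced at 12 weeks of age with doxycycline (DOX), 0.2 mg/ml in the drinking water over 2 weeks. Chow, with 10 kcal% fat, was then fed for 20 weeks, and the other 8 arrays come from mice on a high-fat diet (HFD) with 60 kcal% fat. The DOX treatment is listed for CTRL and NiPKO arrays alike, although no source used here describes it for CTRL mice separately. Pax8 drives the deletion in the whole renal tubule and not in the glomerulus, and recombination was also detected by the study in liver. The RNA came from whole kidney, so fewer cells of a type and less RNA per cell cannot be told apart. Replicates are labelled biological but are not assigned to individual animals, so p-values reflect only how far these samples scatter.

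PGC-1α is a transcriptional coactivator: it does not bind DNA itself but is recruited by transcription factors such as the estrogen-related receptors (ERR) and the nuclear respiratory factors, and it raises the transcription of nuclear genes for mitochondria. The renal tubule is rich in mitochondria because the reabsorption of solutes depends on ATP, and it draws this ATP largely from the oxidation of fatty acids, ketone bodies and lactate. The results below leave the respiratory chain and the citrate cycle aside and follow the genes around them: the supply of fuel, the transport of reducing equivalents, the upkeep of mitochondria, detoxification and the genes that were higher without PGC-1α.

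Of the 22180 genes, 216 (0.974%) were lower and 67 (0.302%) higher in chow NiPKO than in chow CTRL kidneys at a Benjamini-Hochberg adjusted p under 0.05 in limma, 283 genes in all (1.28%), and such genes are called lower or higher below. The lower count dropped past 1.5 times without CTRL 1 (130), CTRL 2 (115), NiPKO 2 (114) or NiPKO 4 (141), and the higher count without CTRL 2 (40), CTRL 3 (39) or NiPKO 2 (33). The fit shares 1 estimate of the spread over the 16 arrays, and the fits with 1 array left out also draw on the HFD arrays. The 8 chow arrays alone gave 54 lower and 21 higher genes, and the methods' t-test with Benjamini-Hochberg adjustment 43 and 4. The chow arrays alone kept 73 of the 283 calls, so genes given below without a limit were not all called there. Of the 216 lower genes, 54 belong to the respiratory chain or the citrate cycle and 162 do not, whereas 0 of the 67 higher genes do. Most changes were small: the median log2 fold change was -0.34 among the lower and 0.45 among the higher genes, and only 3 lower and 5 higher genes changed by more than 2-fold. The study's own thresholds ask for a fold change above 1.2 and p below 0.05 without adjustment. By these, 981 genes differed (4.42%), of which 464 (2.09%) were lower and 517 (2.33%) higher, so 52.7% of these were higher, and 37.5% when each array was centred on its median. The 4 NiPKO arrays lay wholly below the 4 CTRL arrays for all 216 lower genes, and wholly above for 66 of the 67 higher genes, beside 4.15% and 3.29% of all genes (7.44% together). The direction of the calls went with brightness. With the genes divided by mean signal into 4 equal bins, from the dimmest to the brightest, 0, 14, 61 and 141 genes were called lower and 3, 27, 20 and 17 higher, and the median log2 fold change was 0.01, 0.06, -0.02 and -0.02. Over all genes it was 0.01. The part of this shift in the calls was not tested beyond the other normalizations given further on.

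**Figure D1:**
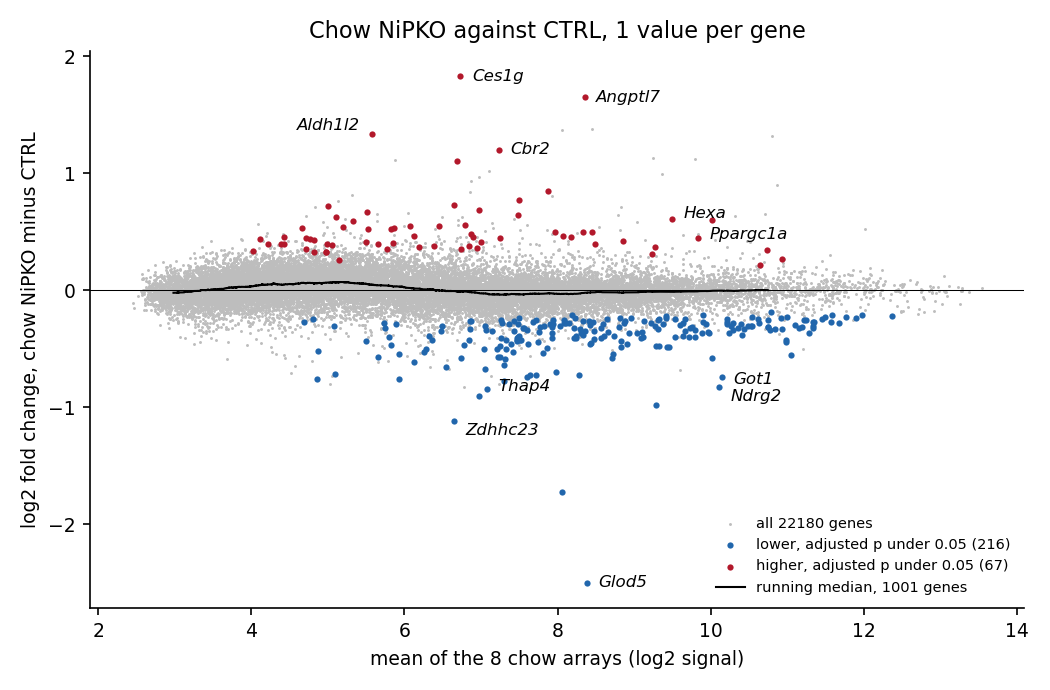
Log2 fold change of chow NiPKO minus chow CTRL (vertical axis) against the mean log2 signal of the 8 chow arrays (horizontal axis), with 1 point per gene, the 216 lower genes in blue, the 67 higher genes in red and a running median as a line. Lower genes lie mostly at high signal, with Glod5 lowest at -2.50, and higher genes spread over dim and bright probe sets, with Ces1g highest at 1.83.

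The deleted gene and its relatives came first. The probe set of Ppargc1a, which encodes PGC-1α, read 9.68, 9.59, 9.56 and 9.60 on CTRL arrays 1 to 4 and 9.91, 10.18, 10.05 and 10.09 on NiPKO arrays 1 to 4, on the log2 scale used throughout. It was thus higher on every NiPKO array, by 0.45 ± 0.07 (SE, n = 4 against 4, adjusted p = 0.00258). Cre removes exons 3 to 5, and the exons read by the probe set were not determined, so it does not check the deletion. A higher value is not the direction the label names. The study examined the deletion by PCR, which is not analysed here, and NiPKO and CTRL stand below for the arrays labelled so. Among the 50 genes nearest to Ppargc1a on chromosome 5, 0 were called, with a smallest adjusted p of 0.0722 in limma, and 13 had an unadjusted p under 0.05 (26%, beside 12.5% of all genes). The sister coactivators Ppargc1b and Pprc1 read 0.08 ± 0.08 (adjusted p = 0.745) and -0.07 ± 0.06 (adjusted p = 0.689). Esrra, which encodes ERRα, a main partner of PGC-1α, read -0.14 ± 0.07 (adjusted p = 0.391), although its 4 NiPKO arrays (7.72 to 7.81) lay below its 4 CTRL arrays (7.87 to 7.995). Klf4, a factor of differentiated epithelium, read -0.19 ± 0.06 (adjusted p = 0.207).

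In the list of PGC-1 coactivators and their partners, 24 of 32 measured genes lay below 0, the median was -0.07, and besides Ppargc1a only Perm1 was called. Perm1, a regulator induced in muscle by PGC-1 and ERR, read 5.58, 5.66, 5.35 and 5.24 on CTRL and 4.68, 4.58, 4.79 and 4.92 on NiPKO arrays. All NiPKO values were thus lower, although the probe set is dim, and the difference was -0.72 ± 0.14 (1.64-fold, adjusted p = 0.0184). Its call was lost without CTRL 1, CTRL 2 or NiPKO 2 (adjusted p = 0.0600 to 0.0728).

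ERR proteins bind the extended core AAGGTCA, which reads TGACCTT on the other strand, and the promoters of the lower genes were searched for it. The windows run from 250 bases before to 50 bases after each annotated start, from RefSeq on the build GRCm38.p6, and each gene counted if any of its windows held the letters on either strand. Of 177 lower genes with a window, 19 held AAGGTCA (10.7%), beside 3 of 48 higher genes (6.25%) and 794 of 16990 genes in all (4.67%); over all 32851 windows the share was 4.72%. The longer form TNAAGGTCA, which contains the shorter one, was in 5 of the lower genes (2.82%) and in 1.18% of all genes, and the shorter AGGTCA was in 25.4% and 16.4%. The windows around the match are shown for 8 lower genes that recur below and whose match begins at position -117 or further before the start site. The match is in capitals and the strand of the gene is printed. A match is a description of letters and not a bound site.
Got1, chr19:43524827-43524855 (- strand): cccagAAGGTCAggaggttgtcctctggg
Fbxo44, chr4:148158928-148158968 (- strand): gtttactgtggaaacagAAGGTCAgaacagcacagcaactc
Akr1b10, chr6:34384015-34384055 (+ strand): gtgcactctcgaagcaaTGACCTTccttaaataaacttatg
Perm1, chr4:156215708-156215748 (+ strand): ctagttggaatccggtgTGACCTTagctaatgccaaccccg
Gnb5, chr9:75306060-75306100 (+ strand): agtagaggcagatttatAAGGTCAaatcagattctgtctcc
Ckmt1, chr2:121357580-121357620 (+ strand): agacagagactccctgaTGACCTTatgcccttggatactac
Msrb2, chr2:19371502-19371542 (+ strand): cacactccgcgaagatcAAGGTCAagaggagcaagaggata
Mtrf1l, chr10:5824126-5824166 (- strand): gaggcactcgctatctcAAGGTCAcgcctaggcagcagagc
The match begins at position -245 from the start site in Got1, -128 in Fbxo44, -215 in Akr1b10, -202 in Perm1, -211 in Gnb5, -179 in Ckmt1, -117 in Msrb2 and -206 in Mtrf1l. Msrb2 and Mtrf1l also hold the longer form, with a T 2 bases before the core. Among the other lower genes named below, the AAGGTCA match begins at -51 in Dhcr7, -12 in Gfm1, 9 in Tpi1, 15 in Timm23 and 27 in Pon3. That of Tpi1 is also part of the longer form, on the other strand.

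The largest decrease in the chow comparison was that of Glod5, which encodes a protein with a glyoxalase domain. Glod5 read 9.47, 9.79, 9.60 and 9.67 on CTRL arrays and 7.21, 6.93, 7.14 and 7.26 on NiPKO arrays. The groups were far apart, with each of them tight, and the difference was -2.50 ± 0.09 (5.64-fold, adjusted p = 2.37e-10). Zdhhc23, a palmitoyltransferase that attaches a fatty acid to proteins, read 7.21, 7.17, 7.14 and 7.30 on CTRL and 6.01, 6.15, 6.06 and 6.14 on NiPKO arrays. It fell by 1.12 ± 0.11 (2.17-fold, adjusted p = 9.85e-05), with little spread in either group. Thap4, a THAP-domain protein with a heme-binding nitrobindin domain, read 7.55, 7.50, 7.56 and 7.38 on CTRL and 6.66, 6.62, 6.70 and 6.66 on NiPKO arrays. The 4 NiPKO values hardly differed from each other, and the difference was -0.84 ± 0.07 (1.79-fold, adjusted p = 6.3e-06). These genes were called in all 18 alternative settings described further on.

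Of 9 measured glyoxalases and paraoxonases, Glod5 among them, 2 were called lower (22.2%, beside 0.974% of all genes), and the median of the list was -0.04. The other called gene was Pon3, which hydrolyses lactones, with 7.52, 7.63, 7.18 and 7.37 on CTRL and 6.62, 6.47, 6.61 and 6.40 on NiPKO arrays. It was lower on every NiPKO array, at -0.90 ± 0.11 (1.87-fold, adjusted p = 0.000469). Akr1b10, an aldo-keto reductase that reduces aldehydes and sugars, was lower, at -0.72 ± 0.10 (CTRL 8.49 to 8.86, NiPKO 7.82 to 8.02, adjusted p = 0.00122) and was the only called gene of 10 in the list for fructose, sorbitol and pentose phosphate metabolism. Cyp2u1, a cytochrome P450 that hydroxylates long-chain fatty acids, was lower, at -0.67 ± 0.11 (CTRL 7.23 to 7.57, NiPKO 6.38 to 6.95, adjusted p = 0.00426), the only call among 45 P450 genes, whose median was 0.01.

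**Figure D2:**
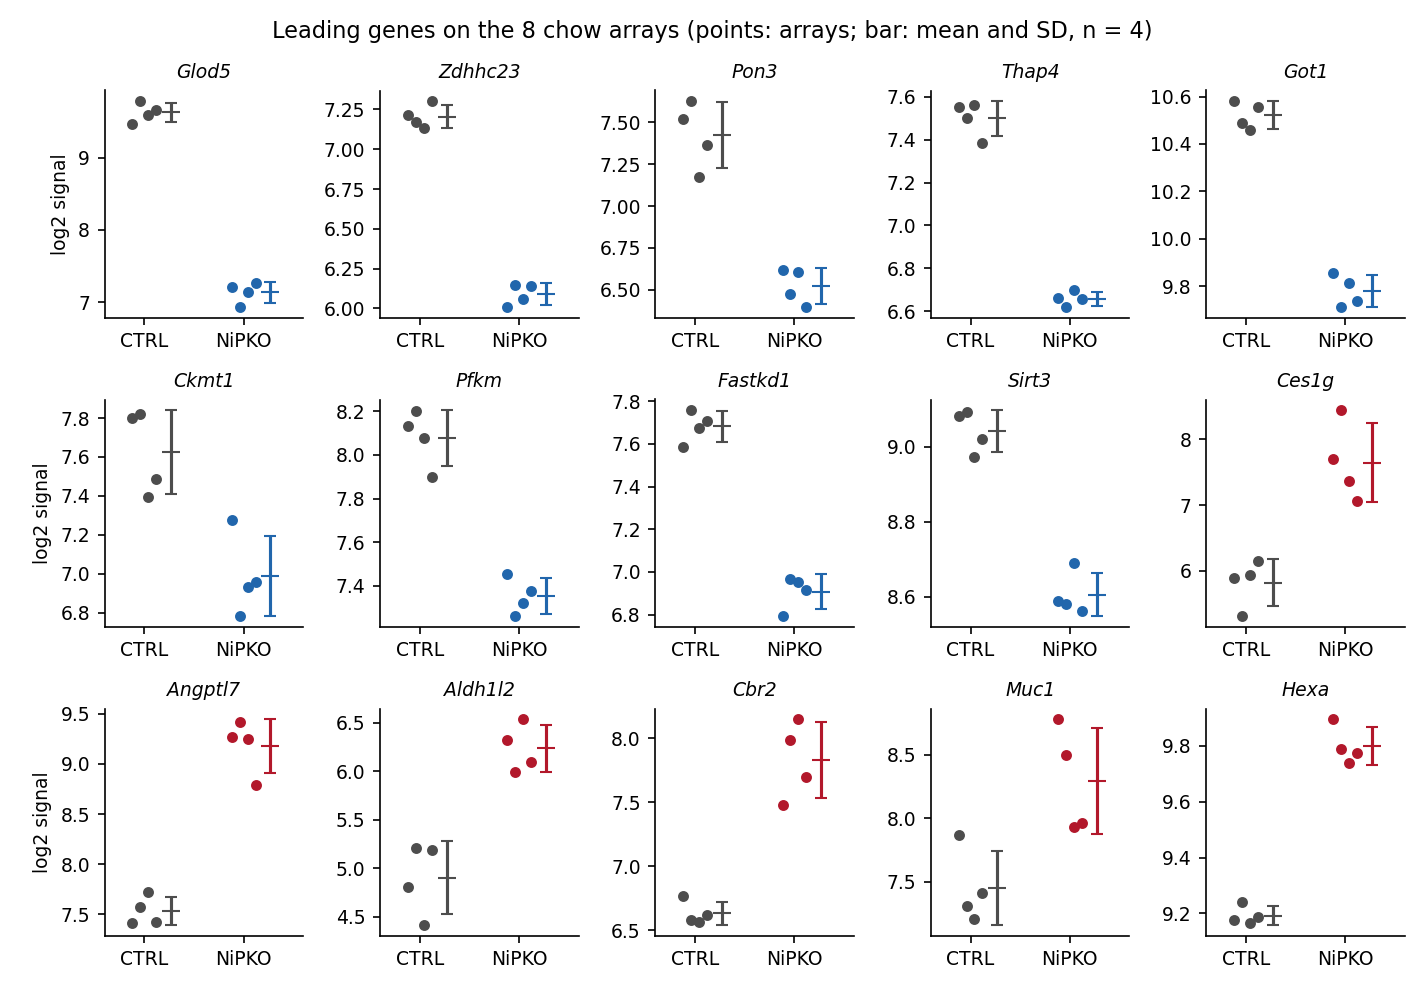
Log2 signal of 15 leading genes on each of the 8 chow arrays (points), with the mean and SD of each group (bars, n = 4), 9 lower genes in blue and 6 higher genes in red on axes fitted to each gene. The groups do not overlap in any panel, and the distance between them ranges from 2.50 log2 units for Glod5 to 0.44 for Sirt3.

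The malate-aspartate shuttle carries reducing equivalents from glycolysis into mitochondria, and 4 genes of its core were lower. Of 18 measured genes for the shuttle and aspartate metabolism, these 4 were called lower (22.2%, beside 0.974% of all genes) and 0 higher, with a median of -0.08. Got1, the cytosolic aspartate aminotransferase, read 10.58, 10.49, 10.46 and 10.56 on CTRL and 9.86, 9.71, 9.81 and 9.74 on NiPKO arrays. This abundant transcript fell on every NiPKO array, at -0.74 ± 0.08 (1.67-fold, adjusted p = 0.000112). Slc25a12, a mitochondrial aspartate-glutamate carrier, read 10.06, 10.12, 10.09 and 9.999 on CTRL and 9.78, 9.65, 9.71 and 9.68 on NiPKO arrays, a difference of -0.37 ± 0.05 (adjusted p = 0.00186). The other carrier of this kind, Slc25a13, read -0.02 (adjusted p = 0.894) and was not called. The shuttle carrier Slc25a11, at -0.22 (adjusted p = 0.0505), was not called either. The mitochondrial aminotransferase Got2 and the cytosolic malate dehydrogenase Mdh1 were lower in smaller steps, at -0.22 ± 0.05 (adjusted p = 0.0251) and -0.25 ± 0.05 (adjusted p = 0.0205). A second, dim probe set of Got2 read -0.20. Got1 and Slc25a12 kept their calls with any array left out, whereas Mdh1 lost its call without CTRL 1, 2 or 3 or NiPKO 2 (adjusted p = 0.0538 to 0.0851), and Got2 without any array other than NiPKO 3 (0.0505 to 0.0796).

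In the glycolysis list 5 of 17 measured genes (29.4%) were called lower and 1 (5.88%) higher, beside 0.974% and 0.302% of all genes. The median was -0.12, and a glucose transporter was called lower. Slc2a4, the insulin-responsive glucose transporter GLUT4, read 8.29, 8.13, 7.59 and 7.99 on CTRL and 7.35, 6.99, 7.37 and 7.39 on NiPKO arrays. CTRL 3 came closest to the NiPKO values, and the difference was -0.73 ± 0.13 (1.65-fold, adjusted p = 0.00943). The muscle and platelet isoforms of phosphofructokinase, which commits sugar to glycolysis, both fell. Pfkm read 8.13, 8.20, 8.08 and 7.90 on CTRL and 7.46, 7.26, 7.32 and 7.38 on NiPKO arrays (-0.72 ± 0.07, adjusted p = 9.85e-05). Pfkp read 8.32, 8.33, 8.54 and 8.16 on CTRL and 8.02, 7.57, 7.35 and 7.59 on NiPKO arrays (-0.70 ± 0.13, adjusted p = 0.00952). The lactate dehydrogenase subunit Ldhb, abundant in oxidative tissue, was lower, at -0.36 ± 0.06 (adjusted p = 0.00425), and the lower glycolytic enzymes Tpi1 and Pgk1, at -0.23 ± 0.05 (adjusted p = 0.0195) and -0.32 ± 0.07 (adjusted p = 0.0379). The higher gene was Hkdc1, a hexokinase-like gene, at 0.39 ± 0.09 (adjusted p = 0.0417). The hexokinases Hk1 and Hk2 and the liver phosphofructokinase Pfkl read -0.31, -0.05 and -0.11 and were not called. Pgk1 and Hkdc1 are named because they complete the count, after their values were seen. The call of Tpi1 was lost without CTRL 2, 3 or 4 or NiPKO 2 or 4 (adjusted p up to 0.0724), that of Pgk1 without CTRL 1, 2 or 4 or NiPKO 2, 3 or 4 (up to 0.137) and that of Hkdc1 without any array but CTRL 4 (up to 0.136). Hkdc1 was also not called under quantile normalization (0.0842) or median centring (0.0581). Of 15 genes for gluconeogenesis and glycogen 0 were called, with a median of -0.01.

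Creatine genes split by direction. Creatine phosphate buffers ATP, and of 7 measured genes 2 were lower (28.6%) and 1 higher (14.3%), with a median of -0.13. Of all genes 0.974% were called lower and 0.302% higher. Ckmt1, a mitochondrial creatine kinase, read 7.80, 7.82, 7.40 and 7.49 on CTRL and 7.27, 6.78, 6.93 and 6.96 on NiPKO arrays. The difference was -0.64 ± 0.11 (1.56-fold, adjusted p = 0.00637), with NiPKO 1 closest to the controls. The other mitochondrial creatine kinase, Ckmt2, read -0.13 (adjusted p = 0.632) and was not called. The creatine transporter Slc6a8 was lower, at -0.31 ± 0.05 (CTRL 11.42 to 11.56, NiPKO 11.13 to 11.23, adjusted p = 0.0085). Gamt, the second enzyme of creatine synthesis, was higher by 0.45 ± 0.10 (CTRL 7.77 to 8.03, NiPKO 8.13 to 8.70, adjusted p = 0.0267). The call of Gamt was lost without CTRL 1, 2 or 3 or NiPKO 1 or 4 (adjusted p = 0.0501 to 0.0878).

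Genes for the oxidation of fatty acids, branched-chain amino acids and ketone bodies lay below 0 almost throughout. In their 2 lists 15.8% and 14.8% of the genes were called lower, beside 0.974% of all genes. Of 19 measured genes of mitochondrial fatty acid oxidation, 18 were below 0 with a median of -0.13, beside 47.4% of all genes below 0. The 3 called genes were Etfa (-0.31 ± 0.06, adjusted p = 0.00943) and Etfdh (-0.27 ± 0.06, adjusted p = 0.0267), which pass electrons from the acyl-CoA dehydrogenases to ubiquinone, and the short-chain enoyl-CoA hydratase Echs1 (-0.29 ± 0.06, adjusted p = 0.0345). Of 27 genes for branched-chain amino acids and ketone bodies, 24 were below 0 with a median of -0.14, and 4 were called lower. Oxct1, which starts the use of ketone bodies, read 11.22, 11.16, 11.21 and 11.21 on CTRL and 10.74, 10.83, 10.71 and 10.81 on NiPKO arrays, a clear separation of -0.43 ± 0.08 (1.35-fold, adjusted p = 0.00899). Mcee, an epimerase on the way from propionyl-CoA to succinyl-CoA, read 9.83, 9.91, 9.77 and 9.85 on CTRL and 9.45, 9.53, 9.49 and 9.48 on NiPKO arrays (-0.35 ± 0.05, adjusted p = 0.00128). Dld, the shared dihydrolipoamide dehydrogenase that also belongs to the citrate cycle and is named to complete the count, was at -0.28 ± 0.05 (adjusted p = 0.00618), and Ppm1k, a phosphatase that activates branched-chain ketoacid breakdown, at -0.28 ± 0.06 (adjusted p = 0.0333). Leaving out a single array ended the calls of Etfdh (CTRL 1 to 4, NiPKO 2 or 4, adjusted p up to 0.112), Echs1 (any but CTRL 3, up to 0.118) and Ppm1k (CTRL 1, 2 or 4, NiPKO 3 or 4, up to 0.120, and 0.0598 under quantile normalization). Of 28 peroxisomal genes and of 40 genes for the breakdown of other amino acids, 0 were called, with medians of -0.02 and 0.02.

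Lists for the upkeep of mitochondria had medians near -0.1, and no gene in them was called higher. Of all genes 0.974% were called lower, and 1.1% and 2.54% of those in the 2 brightest of the 4 bins. Of the 2 lists that follow, 10.1% and 15.2% of the genes were called lower. Of 69 mitochondrial ribosomal proteins, 7 were called lower (10.1%) and 0 higher, 61 were below 0, and the median was -0.13. Among them Mrpl47 was at -0.35 ± 0.06 (adjusted p = 0.0108), Mrpl13 at -0.32 ± 0.06 (adjusted p = 0.0124), Mrps35 at -0.34 ± 0.07 (adjusted p = 0.0251) and Mrps23 at -0.28 ± 0.05 (adjusted p = 0.0136). A second, dimmer probe set of Mrpl47 read -0.47. Of 33 genes for mitochondrial DNA and RNA, 5 were called lower and 31 were below 0, with a median of -0.13. Fastkd1, of the FASTK family that processes mitochondrial RNA, fell most of them and read 7.59, 7.76, 7.68 and 7.71 on CTRL and 6.79, 6.97, 6.95 and 6.92 on NiPKO arrays. The gap exceeded 0.6 between any NiPKO and any CTRL array, with a difference of -0.78 ± 0.06 (1.71-fold, adjusted p = 6.3e-06). Its relative Fastk was at -0.36 ± 0.05 (adjusted p = 0.00122). Gfm1, a mitochondrial elongation factor, was at -0.38 ± 0.06 (adjusted p = 0.00258) and the release factor Mtrf1l at -0.27 ± 0.06 (adjusted p = 0.039), and Supv3l1, an RNA helicase named to complete the count, at -0.21 ± 0.05 (adjusted p = 0.0462). A single left-out array ended the calls of Mrps35 (any but CTRL 4 and NiPKO 3, adjusted p up to 0.0850), Mtrf1l (any, up to 0.123) and Supv3l1 (any, up to 0.142), of Mrpl13 without NiPKO 2 (0.0559) and of Mrps23 without CTRL 2 (0.0602). Mtrf1l and Supv3l1 were also not called under quantile normalization (0.0541 and 0.108).

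In the lists for import, membrane shape, carriers and cofactors, 4.76% to 19.0% of the genes were called, all of them lower. Of 42 genes for protein import and quality control, Afg3l2, a protease of the inner membrane, read 9.32, 9.41, 9.23 and 9.30 on CTRL and 8.91, 8.89, 8.94 and 8.91 on NiPKO arrays, a difference of -0.40 ± 0.05 (adjusted p = 0.000728). The other call was Timm23, the channel of the inner membrane translocase, at -0.19 ± 0.04 (adjusted p = 0.0445). Of 21 genes for fusion, fission and mitophagy 4 were lower with a median of -0.11: the outer membrane fusion GTPase Mfn1 (-0.25 ± 0.05, adjusted p = 0.0117), the cristae organizers Immt (-0.26 ± 0.05, adjusted p = 0.0148) and Chchd3 (-0.24 ± 0.05, adjusted p = 0.0355), and the fission protein Mtfp1 (-0.39 ± 0.08, adjusted p = 0.0263). Of 39 genes in the list for mitochondrial solute carriers, which also holds a porin, 2 were lower. These were the porin Vdac2 (-0.30 ± 0.06, adjusted p = 0.0124) and the S-adenosylmethionine carrier Slc25a26 (-0.26 ± 0.05, adjusted p = 0.0237). The carrier Slc25a12, called lower above, is not in this list. Of 30 genes for ubiquinone, heme and iron-sulfur clusters 4 were lower and 27 were below 0, with a median of -0.13. They were Pdss2 (-0.32 ± 0.07, adjusted p = 0.0205) and Coq9 (-0.26 ± 0.05, adjusted p = 0.0213) of ubiquinone synthesis, and Bola3 (-0.30 ± 0.06, adjusted p = 0.0209) and Isca2 (-0.22 ± 0.05, adjusted p = 0.0437) of iron-sulfur cluster assembly. Afg3l2, Mfn1 and Immt kept their calls with any array left out. Mfn1 (adjusted p = 0.0938) and Immt (0.119) lost theirs with the 8 chow arrays alone. Timm23 and Isca2 lost theirs without any single array (adjusted p up to 0.159), Chchd3 without any but CTRL 1 and NiPKO 3 (up to 0.117), Mtfp1 without CTRL 1, 2 or 4 or NiPKO 1 or 2 (up to 0.0755) and Coq9 without CTRL 1, 2 or 3 or NiPKO 1 or 2 (up to 0.0887). Pdss2 lost its call without CTRL 1 or 4 or NiPKO 2 or 4 (up to 0.0710), Slc25a26 without CTRL 1 or 4 or NiPKO 3 or 4 (up to 0.0723), Bola3 without CTRL 3 or NiPKO 2 (up to 0.0850) and Vdac2 without CTRL 2 or NiPKO 2 (up to 0.0522). Timm23, Mtfp1, Chchd3, Slc25a26 and Isca2 were also not called under quantile normalization (adjusted p = 0.0582 to 0.0889).

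Of 30 antioxidant and mitochondrial thiol genes 5 were called lower (16.7%, beside 0.974% of all genes), with a median of -0.04. Sirt3, the main deacetylase of mitochondrial proteins, read 9.08, 9.09, 8.97 and 9.02 on CTRL and 8.59, 8.58, 8.69 and 8.56 on NiPKO arrays. All 4 NiPKO values were lower, and the difference was -0.44 ± 0.06 (1.35-fold, adjusted p = 0.0015). Srxn1, which repairs oxidized peroxiredoxins, was at -0.33 ± 0.06 (adjusted p = 0.00718), and Msrb2, a methionine sulfoxide reductase, at -0.31 ± 0.06 (adjusted p = 0.0205). The mitochondrial superoxide dismutase Sod2 was at -0.22 ± 0.05 (adjusted p = 0.0272) and the mitochondrial peroxiredoxin Prdx3, named to complete the count, at -0.25 ± 0.06 (adjusted p = 0.0355). Ppif, cyclophilin D of the permeability transition pore, is in none of the lists and was chosen after its values were seen. It read 10.30, 10.31, 10.30 and 10.33 on CTRL and 9.66, 9.77, 9.70 and 9.81 on NiPKO arrays, with hardly any spread among controls (-0.58 ± 0.06, adjusted p = 0.000172). Nmnat1, the nuclear enzyme of NAD synthesis, was the only call of 22 NAD genes (-0.32 ± 0.07, adjusted p = 0.035). The call of Msrb2 was lost without CTRL 1, 2 or 3 or NiPKO 2 or 4 (adjusted p up to 0.0699), those of Sod2 and Prdx3 without any array but CTRL 3 and NiPKO 1 (up to 0.101 and 0.136) and that of Nmnat1 without any but CTRL 2 and NiPKO 3 (up to 0.128). Msrb2, Prdx3 and Nmnat1 were also not called under quantile normalization (0.0541, 0.0532 and 0.0903).

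**Figure D3:**
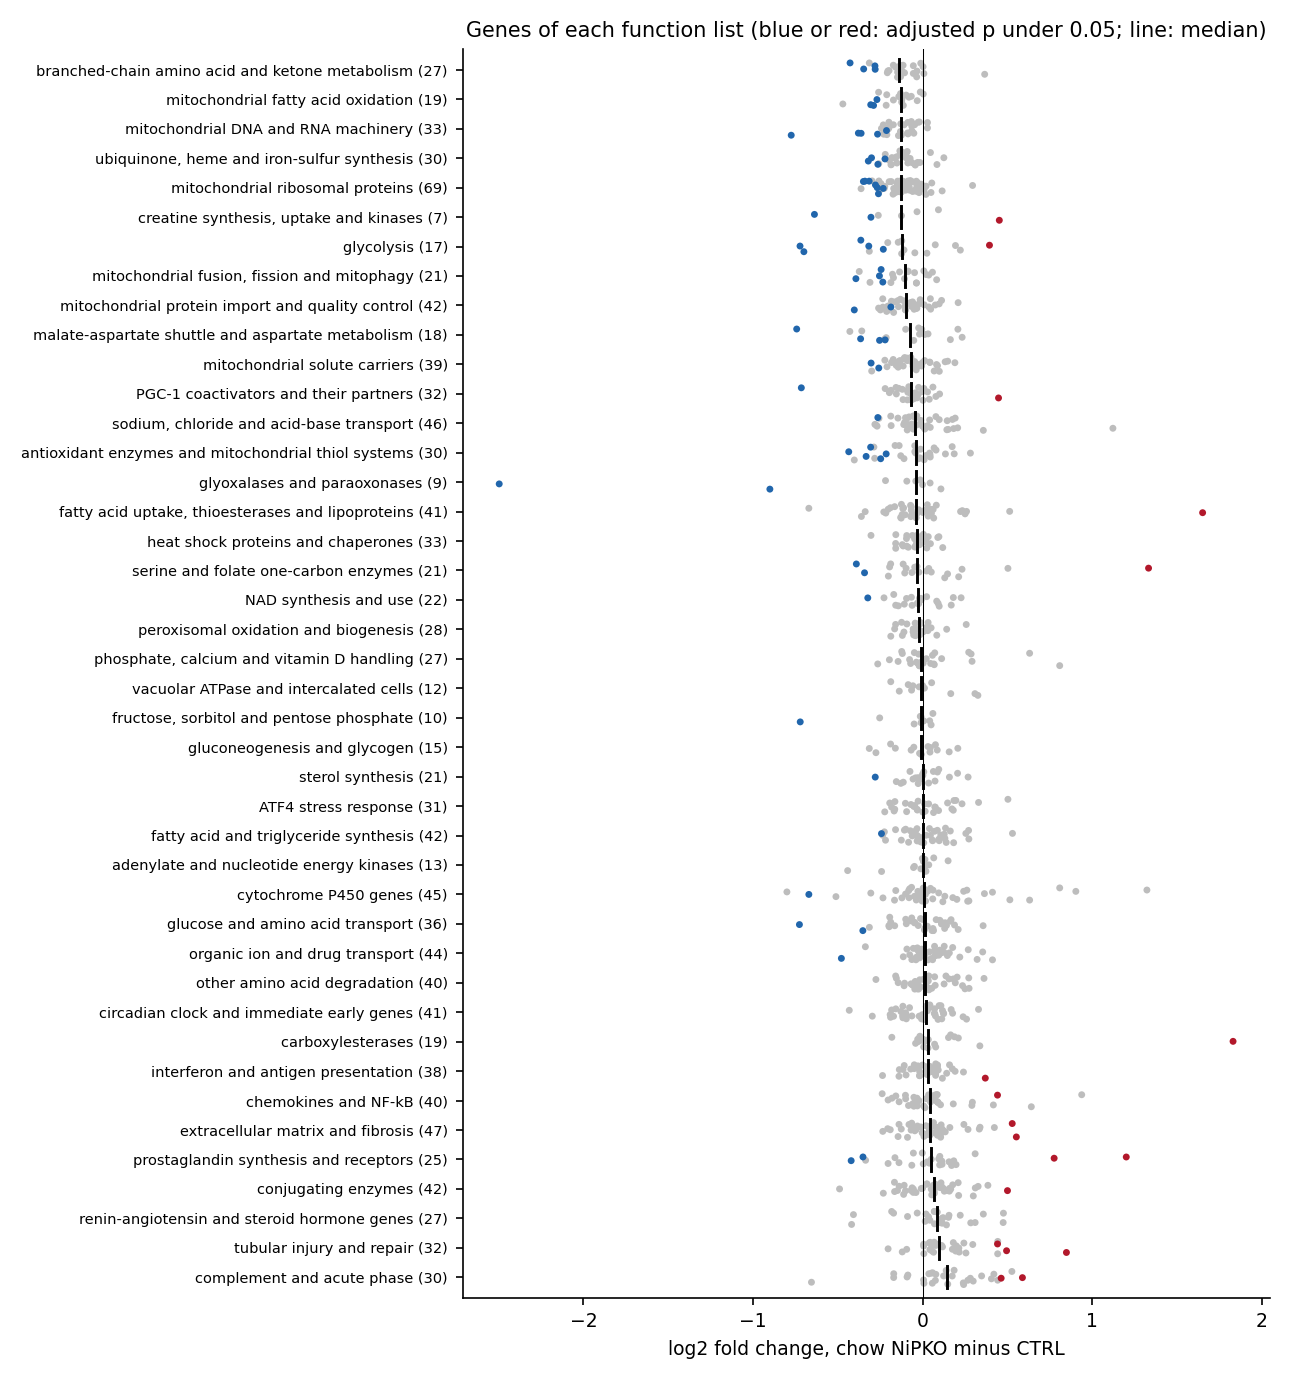
Log2 fold change on chow of every measured gene of the 42 function lists, ordered by median (vertical line), with the number of measured genes in brackets and called genes in blue or red. Lists for fuel oxidation and for the ribosome, RNA, import, dynamics, carriers and cofactors of mitochondria have medians between -0.14 and -0.07, and the highest medians are 0.10 for injury and 0.14 for complement.

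Several of the most reduced genes belong to none of these mitochondrial functions. Ndrg2, a stress-responsive cytosolic protein expressed in many epithelia, read 10.79, 10.69, 10.31 and 10.31 on CTRL and 9.97, 9.40, 9.65 and 9.78 on NiPKO arrays. It was lower on each of them, at -0.83 ± 0.13 (1.78-fold, adjusted p = 0.00396). Fbxo44, a substrate receptor of a ubiquitin ligase, read 8.02, 8.003, 8.10 and 7.74 on CTRL and 7.23, 7.26, 7.32 and 7.09 on NiPKO arrays (-0.74 ± 0.08, adjusted p = 0.000122). Gnb5, a G protein β subunit that pairs with RGS proteins of its own class, read 6.99, 6.70, 7.01 and 6.75 on CTRL and 6.45, 6.05, 6.07 and 6.26 on NiPKO arrays (-0.66 ± 0.11, adjusted p = 0.00476). Rgs11, a member of that class chosen after its values were seen, was higher by 0.38 ± 0.07 (adjusted p = 0.00996). Tmem35a, a chaperone of acetylcholine receptors, was lower, at -0.61 ± 0.10 (adjusted p = 0.00426) and the kelch protein Klhdc8a, at -0.59 ± 0.11 (adjusted p = 0.0141). The collagenase Mmp13, at -0.76 ± 0.17 (adjusted p = 0.0308), came from a dim probe set in which NiPKO 3 (4.72) came close to CTRL 4 (4.85). Klk1b22, at -0.75 ± 0.15 (adjusted p = 0.015), belongs to a family of near-identical kallikrein genes whose signals a probe set may not separate. Without CTRL 1 or NiPKO 2 the calls of Klhdc8a and Klk1b22 were lost (adjusted p = 0.0524 to 0.0605), and that of Mmp13 without CTRL 1 or 3 or NiPKO 1, 2 or 4 (0.0767 to 0.1004).

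Of 36 genes for glucose and amino acid transport, only Slc2a4 and the amino acid transporter Slc43a2 (-0.35 ± 0.07, adjusted p = 0.025) were called, and of 44 for organic ions and drugs only Slc16a5, a monocarboxylate carrier family member (-0.48 ± 0.10, adjusted p = 0.0191, with -0.26 from its other probe set). Of 46 genes for sodium, chloride and acid-base transport, 1 was called: Aqp3, a water and glycerol channel of the collecting duct, read 9.04, 8.97, 9.03 and 9.01 on CTRL and 8.72, 8.73, 8.76 and 8.79 on NiPKO arrays (-0.26 ± 0.05, adjusted p = 0.0122). The median of that list was -0.05. The sodium transporters of the loop of Henle and the distal tubule differed by less than their spread: Slc12a1, the NKCC2 cotransporter, read -0.08 ± 0.09 (adjusted p = 0.776), and Slc12a3, the thiazide-sensitive cotransporter, -0.01 ± 0.08 (adjusted p = 0.976). The subunits of the epithelial sodium channel read -0.09 ± 0.08 for Scnn1a, 0.14 ± 0.07 for Scnn1b and 0.08 ± 0.07 for Scnn1g, with adjusted p of 0.732, 0.459 and 0.727. Slc17a4, an organic anion transporter in none of the lists, is named after its values were seen because it is the 1 called higher gene whose groups overlap. It read 7.01, 7.11, 7.06 and 7.44 on CTRL and 7.26, 8.01, 8.06 and 7.87 on NiPKO arrays. NiPKO 1 lay below CTRL 4, and the difference was 0.65 ± 0.15 (adjusted p = 0.0445). Its call was lost without any array but CTRL 4 and NiPKO 1 (adjusted p = 0.109 to 0.158) and under median centring (0.0553). The call of Slc43a2 was lost without CTRL 1, 2 or 3 or NiPKO 3 or 4 (adjusted p = 0.0581 to 0.0795), and that of Slc16a5 without CTRL 1 or 2 (0.0652 to 0.0689). In lipid synthesis, Dhcr7, the last step of cholesterol synthesis, was the only call of 21 sterol genes (-0.28 ± 0.06, adjusted p = 0.0429) and the elongase Elovl7 the only call of 42 genes for fatty acids and triglycerides (-0.24 ± 0.05, adjusted p = 0.0237). Dhcr7 lost its call without any array but CTRL 1 and NiPKO 4 (adjusted p up to 0.125) and under quantile normalization (0.109), and Elovl7 without any but CTRL 4 and NiPKO 1 (up to 0.0828).

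The largest increases were those of Ces1g and Angptl7. Ces1g, a carboxylesterase that hydrolyses lipid esters, read 5.88, 5.30, 5.93 and 6.15 on CTRL and 7.70, 8.45, 7.37 and 7.06 on NiPKO arrays. The NiPKO values spread widely yet all lay above the controls, and the difference was 1.83 ± 0.37 (3.55-fold, adjusted p = 0.0188). Ces1g was the only call of 19 carboxylesterases, whose median was 0.03; these genes are close paralogs whose signals a probe set may share. Angptl7, a secreted protein of the angiopoietin-like family, read 7.42, 7.57, 7.72 and 7.42 on CTRL and 9.27, 9.41, 9.25 and 8.80 on NiPKO arrays. It rose by 1.65 ± 0.18 (3.14-fold, adjusted p = 0.000218) and was the only called gene of 41 for fatty acid uptake, thioesterases and lipoproteins. The call of Ces1g was lost without CTRL 2 or NiPKO 2 (adjusted p = 0.0714 to 0.0724), and that of Angptl7 was not lost in any alternative.

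Of the folate enzymes, a mitochondrial one was higher and 2 cytosolic ones were lower. Aldh1l2, the mitochondrial 10-formyltetrahydrofolate dehydrogenase, read 4.81, 5.21, 4.41 and 5.18 on CTRL and 6.32, 5.99, 6.54 and 6.09 on NiPKO arrays. It rose from a dim to a moderate signal, by 1.33 ± 0.17 (2.52-fold, adjusted p = 0.000719). Its cytosolic counterpart Aldh1l1 read 10.49, 10.52, 10.46 and 10.37 on CTRL and 10.16, 10.09, 10.20 and 10.02 on NiPKO arrays, and was lower, at -0.34 ± 0.07 (adjusted p = 0.0204). The cytosolic serine hydroxymethyltransferase Shmt1 was lower too, at -0.39 ± 0.09 (adjusted p = 0.0327). These 3 genes were the calls among 21 measured serine and folate genes, whose median was -0.03. Thus 9.52% of the list were called lower and 4.76% higher, beside 0.974% and 0.302% of all genes. Psat1, of serine synthesis, read 6.68, 7.01, 6.83 and 6.69 on CTRL and 7.70, 7.01, 7.23 and 7.28 on NiPKO arrays, with NiPKO 2 within the range of the controls (0.50 ± 0.15, adjusted p = 0.128). Of 31 genes of the ATF4 stress response, to which Psat1 also belongs, 0 were called and the median was 0.00. Leaving out single arrays ended the calls of Aldh1l1 (CTRL 1 or 2, NiPKO 2 or 4, adjusted p up to 0.0728) and Shmt1 (any but CTRL 3 and NiPKO 1, up to 0.104), and Shmt1 was not called under quantile normalization (0.0694).

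In the list for prostaglandin synthesis and receptors, 2 of 25 measured genes were higher and 2 lower (8% each, beside 0.302% and 0.974% of all genes), with a median of 0.05. As described below, both lower genes act on other lipids, so these counts do not describe prostaglandin synthesis alone. The list is also not complete. Ptgr2, a prostaglandin reductase outside it, was called lower as well, at -0.29. Cbr2, a carbonyl reductase of mitochondria, read 6.76, 6.58, 6.56 and 6.62 on CTRL and 7.48, 7.99, 8.15 and 7.70 on NiPKO arrays. It was higher on all of them, by 2.30-fold (log2 SE 0.18, adjusted p = 0.00258). Ptgds, the lipocalin-type prostaglandin D synthase, read 7.23, 7.12, 6.85 and 7.24 on CTRL and 8.38, 7.79, 7.66 and 7.71 on NiPKO arrays (0.77 ± 0.18, adjusted p = 0.0379). Faah, which breaks down fatty acid amides such as anandamide, was lower, at -0.35 ± 0.07 (adjusted p = 0.0237), and Pla2g7, which inactivates platelet-activating factor, at -0.42 ± 0.10 (adjusted p = 0.0472). Of these 4 only Cbr2 kept its call with any array left out. Faah lost it without CTRL 2, 3 or 4 or NiPKO 4 (adjusted p up to 0.0800), Ptgds without any array but NiPKO 3 (up to 0.111) and Pla2g7 without any but NiPKO 1 (up to 0.137), and Pla2g7 also fell just short of a call under quantile normalization.

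Among genes known from injured tubules few were called, all of them higher. In the list for tubular injury and repair 29 of 32 genes were above 0 with a median of 0.10, and 3 were called higher. Of all genes 47.4% were below 0, and 0.302% were called higher. Muc1, a mucin of the distal tubule, read 7.87, 7.31, 7.20 and 7.41 on CTRL and 8.78, 8.50, 7.93 and 7.97 on NiPKO arrays. NiPKO 3 and 4 lay just above CTRL 1, and the difference was 0.85 ± 0.18 (1.80-fold, adjusted p = 0.0246). Clu, the secreted chaperone clusterin, read 8.15, 8.13, 8.38 and 8.13 on CTRL and 8.86, 8.77, 8.74 and 8.40 on NiPKO arrays (0.49 ± 0.10, adjusted p = 0.0163), with NiPKO 4 next to CTRL 3. The neutrophil-attracting chemokine Cxcl1 was higher by 0.44 ± 0.08 (adjusted p = 0.0114) from a dim probe set (CTRL 4.44 to 4.67, NiPKO 4.85 to 5.22). Cxcl1 was also the only call of 40 genes for chemokines and NF-kB. Of 30 complement and acute-phase genes 25 were above 0 with a median of 0.14, and 2 were called, C2 of the classical pathway (0.46 ± 0.10, adjusted p = 0.0349) and fetuin-B, Fetub (0.59 ± 0.14, adjusted p = 0.0449). The median level was 6.69 in the injury list and 5.98 in the complement list. Genes with a mean signal of 4.36 to 5.94 had a median log2 fold change of 0.06, and those of 5.94 to 7.79 of -0.02. The part of brightness in the values of these lists was not tested. Of 47 matrix genes Pamr1, a secreted protease-like protein (0.55 ± 0.10, adjusted p = 0.0114), and the collagen chain Col5a2 (0.53 ± 0.11, adjusted p = 0.0251) were higher, and of 38 genes for interferon and antigen presentation only Lgals3bp (0.37 ± 0.09, adjusted p = 0.0461; 0.19 from its other probe set). Macrophage markers, all 11 of which were above 0, are given with the other cell types below, and their part in these values was not tested. Cxcl1 kept its call with any array left out, but not with the 8 chow arrays alone (adjusted p = 0.0890). Pamr1 lost it without NiPKO 2 (adjusted p = 0.0501), Clu without CTRL 1 or 2 or NiPKO 2 (up to 0.0647), Muc1 without CTRL 2, 3 or 4 or NiPKO 1 or 2 (up to 0.0960) and C2 without CTRL 1 or 4 or NiPKO 2, 3 or 4 (up to 0.130). Col5a2 lost it without any array but CTRL 1 and NiPKO 3 (up to 0.0950), Lgals3bp without any but CTRL 1 (up to 0.146) and Fetub without any but NiPKO 4 (up to 0.137) and under quantile normalization (0.0916).

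The other large increases are given gene by gene. Hexa and Elapor1 among them encode lysosomal proteins. No list of lysosomal genes was made, so whether the higher genes share a function was not tested. Hexa, a subunit of lysosomal β-hexosaminidase, read 9.18, 9.24, 9.16 and 9.19 on CTRL and 9.90, 9.79, 9.74 and 9.78 on NiPKO arrays. Both groups were tight, the difference was 0.61 ± 0.08 (1.52-fold, adjusted p = 0.0012), and the call held in all 18 alternative settings. Aoc1, the diamine oxidase that degrades histamine and putrescine, read 6.47, 6.20, 6.25 and 6.23 on CTRL and 7.33, 6.97, 6.97 and 6.79 on NiPKO arrays (0.73 ± 0.14, adjusted p = 0.0117). The protease inhibitor Spink8 was higher by 0.68 ± 0.12 (adjusted p = 0.00943), the endosomal and lysosomal protein Elapor1 by 0.72 ± 0.13 (adjusted p = 0.0093), and the glucuronosyltransferase Ugt2b34 by 0.50 ± 0.09 (adjusted p = 0.0111), the only call of 42 conjugating enzymes. Further named increases were the secreted proteins Sectm1b (0.60 ± 0.14, adjusted p = 0.0437) and Ccdc3 (0.56 ± 0.10, adjusted p = 0.0117), the vesicle protein Mreg (0.52 ± 0.09, adjusted p = 0.00943) and Fam221a (0.53 ± 0.09, adjusted p = 0.00492). Ccdc3 rests on the brighter of its 2 probe sets, and the dim one read -0.06. Pou2af1, a coactivator of B cells, was higher by 0.54 ± 0.11 (adjusted p = 0.0211) from a dim probe set, and Ifna7, of a family of near-identical interferon genes, by 0.67 ± 0.15 (adjusted p = 0.036). Sectm1b lost its call without any array but CTRL 2 (adjusted p up to 0.124), Ifna7 without any but CTRL 1 (up to 0.135) and under quantile normalization (0.0582), and Pou2af1 without CTRL 1, CTRL 2 or NiPKO 2 (0.0652 to 0.0706).

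Of 14 lists of markers for nephron segments and other cells in whole kidney, 12 held no called gene. Of all genes 1.28% were called, and at that share most lists of 7 to 11 genes would hold no call. The number of empty lists thus does not tell cell types apart. Proximal tubule markers were bright, with a median level of 12.2 in the S1 and S2 list, and their median log2 fold changes were 0.04 (11 genes) and 0.05 (8 genes of S3). The loop of Henle (7 genes) was at -0.05, the distal convoluted and connecting tubule (9 genes) at -0.03, principal cells (9 genes) at 0.07 with Aqp3 as the call, intercalated cells (8 genes) at 0.00 and podocytes (7 genes) at -0.05. Endothelial markers were below 0 in 11 of 11 genes, beside 47.4% of all genes, with a median of -0.11. Their median deviation from each gene's mean was 0.01 to 0.12 on the CTRL arrays and -0.09 to -0.06 on the NiPKO arrays, so the groups did not overlap, although no single marker was called. This separation is not particular to endothelium. Several function lists separated too, such as mitochondrial ribosomal proteins (0.02 to 0.08 on CTRL, -0.09 to -0.04 on NiPKO) and, upward, complement (-0.07 to -0.04 on CTRL, 0.01 to 0.10 on NiPKO). Macrophage and myeloid markers were above 0 in 11 of 11 genes, with a median of 0.07, and their array deviations overlapped, from -0.22 to -0.01 in CTRL and from -0.10 to 0.23 in NiPKO. The lymphocyte list (11 genes, median 0.07) held the other call, Blnk, a B cell adaptor, at 0.50 ± 0.11 (adjusted p = 0.04), which was lost without CTRL 3 or 4 or NiPKO 1, 2 or 3 (up to 0.117). Adipocyte, adrenal and hepatocyte markers had median levels of 5.69, 4.36 and 5.95 and median log2 fold changes of 0.01, 0.04 and 0.03, and fibroblast and smooth muscle markers were at 0.00.

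**Figure D4:**
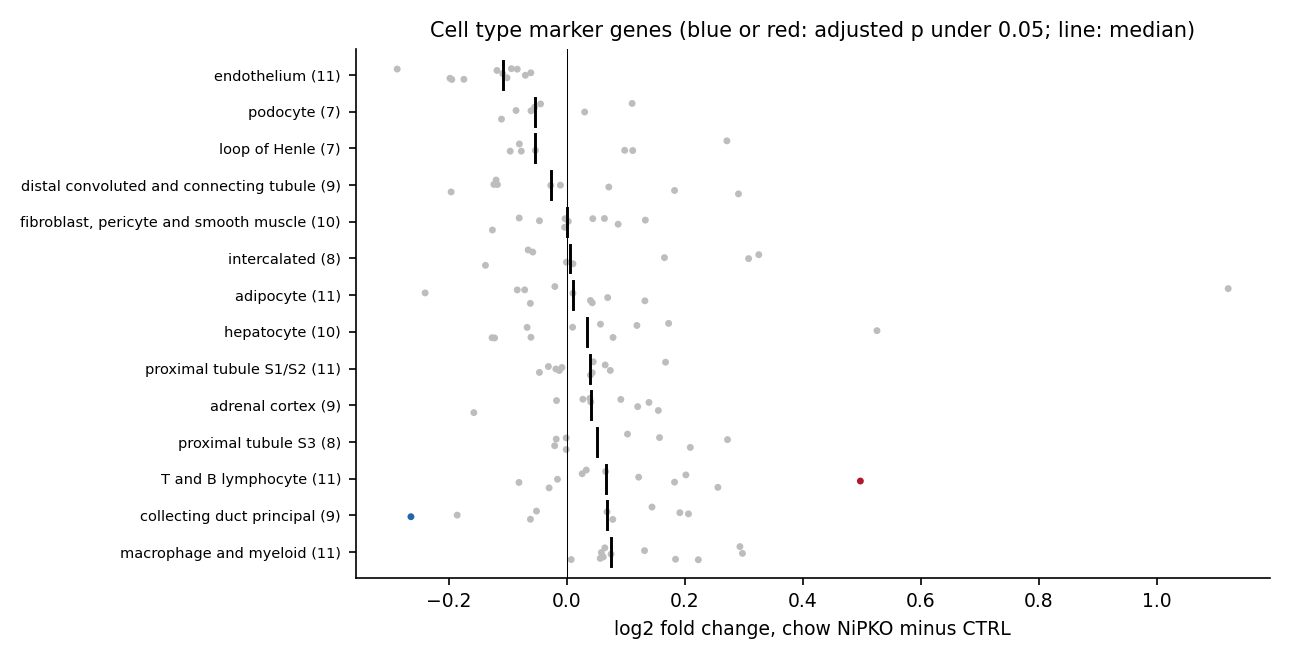
Log2 fold change on chow of the measured marker genes of 14 cell types (points), with the median of each list (line) and the number of genes in brackets. Called genes are coloured: Aqp3 lower among principal cell markers and Blnk higher among lymphocyte markers, while all 11 endothelial markers lie below 0 and all 11 macrophage markers above it.

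At the share of 1.28% called among all genes, a list of 12 to 41 genes can be without a call. Lists without any call numbered 10 of the 42 function lists. Besides those already given, they cover 13 adenylate and nucleotide kinases (median 0.00), 12 vacuolar ATPase and intercalated cell genes (-0.01), 27 genes for phosphate, calcium and vitamin D (-0.01), 27 renin-angiotensin and steroid hormone genes (0.09), 41 clock and immediate early genes (0.02) and 33 heat shock proteins and chaperones (-0.04). Of the 162 lower and 67 higher genes outside the respiratory chain and citrate cycle, 9 and 10 are predicted genes and the like, which are counted and not named.

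The 8 arrays of mice on HFD share no array with the chow comparison, and the same contrast there gave 132 lower (0.595%) and 51 higher genes (0.23%). The spread of each gene was estimated over all 16 arrays, so the calls on HFD are not independent of those on chow. Of the 216 genes lower on chow, 212 (98.1%) were below 0 on HFD as well, 101 (46.8%) were called lower there, and their median was -0.27. Of the 67 genes higher on chow, 52 (77.6%) were above 0 on HFD, 10 (14.9%) were called higher, and their median was 0.23. The share of all genes on the same side of 0 on both diets was not determined. Glod5 fell on both diets (-2.50 on chow, -2.10 on HFD), as did Thap4 (-0.84 and -0.72), Got1 (-0.74 and -0.70) and Sirt3 (-0.44 and -0.45), and Angptl7 and Hexa rose on both (1.65 and 1.08, 0.61 and 0.53). On HFD the log2 fold changes of Cbr2 (0.42, adjusted p = 0.37), Perm1 (-0.32, adjusted p = 0.42) and Cxcl1 (-0.17, adjusted p = 0.48) were not called. The difference between the diets was tested by the interaction term of limma, in which 0 genes reached an adjusted p under 0.05 (smallest 0.125), and 1828 genes (8.24%) had an unadjusted p under 0.05. Such an unadjusted p was found in 35 of the lower (16.2%) and 33 of the higher genes (49.3%). These genes were chosen by the chow values that enter the term, so these shares have no test.

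**Figure D5:**
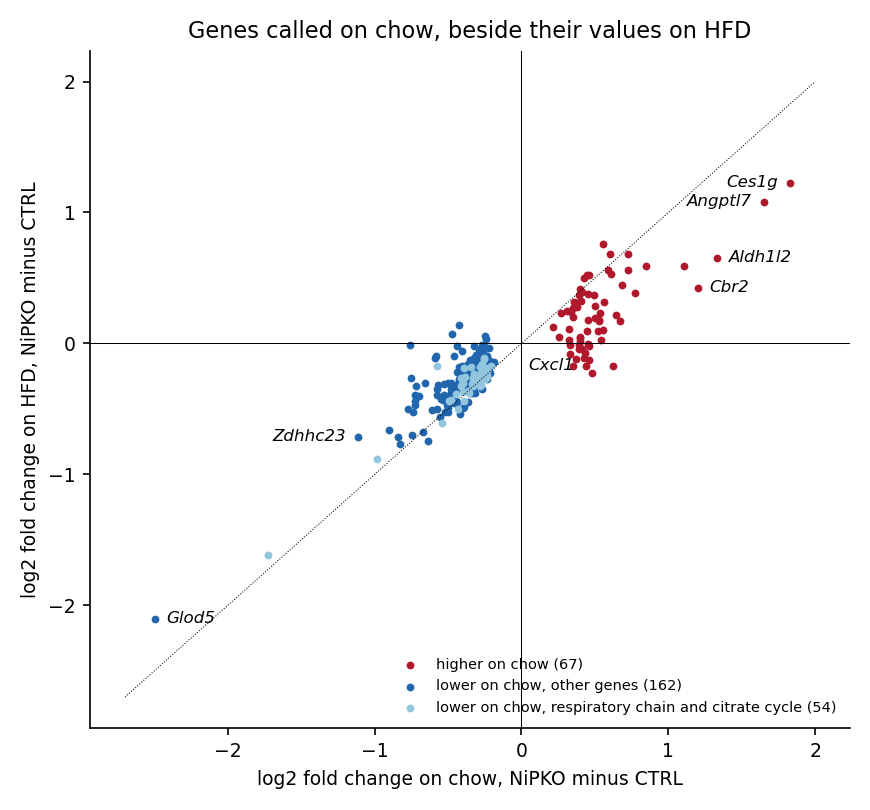
Log2 fold change of NiPKO minus CTRL on HFD (vertical axis) against that on chow (horizontal axis) for the 283 genes called on chow, with higher genes in red, lower genes in dark blue, lower genes of the respiratory chain and citrate cycle in light blue, and equal values on the dotted line. Of the lower genes 212 of 216 lie below 0 on both diets, and of the higher genes 52 of 67 lie above 0 on both.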

How the data were processed

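Total RNA of whole mouse kidney was hybridized to Affymetrix Mouse Gene 2.0 ST arrays, 4 for each of the 4 groups in the sample labels. What the authors deposited are log2 expression values, already normalized, of 41345 probe sets. The submitters' processing notes list Partek with no version, and no source used here gives the background correction or the normalization. That the scale is log2 was read from the range, 2.07 to 13.8, and the medians of the chow arrays, 5.35 to 5.39. Scanner intensities were not used here, so signal over background is unknown. The precision is limited by how many arrays there are. Any 2 chow arrays correlated at 0.988 to 0.991 over genes.

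Of the probe sets, 23521 carry 1 gene symbol in the platform annotation, and 1082 genes have several. The brightest over the 16 arrays was kept for each, with no minimum brightness.

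All 16 arrays entered a limma 3.58.1 model (lmFit, eBayes; R 4.3.3) with a mean per group and no block, and p-values were adjusted by Benjamini-Hochberg over all 22180 genes. Values after ± are standard errors. Lists are described by counts and medians only. With 1.28% of all genes called, a list of 40 genes may hold 0 or 1 call at that share. The members and lists were chosen with earlier results of these data known. Genes were named by rule: outside the respiratory chain and citrate cycle, the 20 largest called changes in each direction whose groups do not overlap, the 4 smallest p in each list, PGC-1 family members and the study's sodium transporters. The 8 others were chosen after their values were seen: Hkdc1, Ppif, Pgk1, Dld, Prdx3, Supv3l1, Rgs11 and Slc17a4. Hk1, Hk2, Pfkl, Slc25a11, Slc25a13, Ckmt2 and Ptgr2 are printed only beside these genes. They are outside all counts of named genes and were not followed through the alternatives. Alternatives were the 8 chow arrays alone, quantile normalization, median centring, the brighter genes only, the methods' t-test, a robust prior with a trend in variance, weighted arrays, averaged probe sets, the replicate number as a block, a fold over 1.5 and each chow array left out. Cyclic loess normalization was added after seeing the data.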

Additional observations from a re-analysis of the deposited data

Results flagged for a closer look

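In 9 of 220 groups of 4 chow arrays (4.09%), 1 array of a named gene lay apart from the other 3 by more than the critical value of Dixon's test allows, and about 1 group in 20 does so by chance. Slc2a4 was lowest on NiPKO 2 (6.99, the others 7.35 to 7.39), which lies on the side of its decrease. Clu was highest on CTRL 3 (8.38, the others 8.13 to 8.15), on the side of the NiPKO arrays. Among mitochondrial and fuel genes, Mrps23 (8.01, the others 7.96) and Mrps35 (7.49, the others 7.41 to 7.42) were highest on 1 NiPKO array each, and Oxct1 (11.16, the others 11.21 to 11.22) and Dld (10.67, the others 10.79 to 10.81) were lowest on 1 CTRL array each. Esrra was highest on CTRL 2 (7.995, the others 7.87 to 7.89). The sodium transporters Slc12a1, at 11.9 on CTRL 1 (the others 11.64 to 11.67), and Slc12a3, at 11.97 on NiPKO 1 (the others 12.12 to 12.14), were the remaining cases.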

How the results depend on the processing

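The direction of all 283 calls held in each alternative that measured the gene, while their number moved. The 8 chow arrays alone gave 54 lower and 21 higher genes, and the methods' t-test with Benjamini-Hochberg adjustment 43 and 4, beside 374 and 371 at the study's thresholds; both have fewer degrees of freedom. Median centring gave 325 lower genes. The brighter genes alone gave 356 lower after adjustment and 200 higher at the study's thresholds, over 11090 genes. A fold over 1.5 left 32 lower and 32 higher. Quantile normalization kept 220 of the 283 calls and cyclic loess, chosen after seeing the data, 225. Leaving out 1 chow array gave 114 to 198 lower and 33 to 72 higher genes after adjustment, and 441 to 618 and 494 to 632 at the study's thresholds. Of the 100 called genes that were followed, 47 kept the call with any array left out, and 16 were called in all alternatives that were run. Some genes kept the call with any array left out but lost it with the 8 chow arrays alone. Among them were Ndrg2 (adjusted p = 0.0505), Slc2a4 (0.0823), Pfkp (0.0708), Ckmt1 (0.0773), Cyp2u1 (0.0565), Spink8 (0.0952) and Aqp3 (0.0773). Without CTRL 1, CTRL 2 or NiPKO 1, Slc12a3 changed sign, at 0.0262, 0.0296 and 0.0272, and was not called; over all left-out arrays it ranged from -0.0901 to 0.0296. Same-numbered chow arrays deviated together with correlations of -0.10 to 0.17 over genes. The best match had the same number for replicates 1 and 3 and another number for replicates 2 and 4. With 4 arrays per group, this cannot decide whether the numbers pair the arrays. The replicate block gave 168 lower and 56 higher genes.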
